A study of Mus musculus with 5 samples.

Results

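Tissue repair genes of regulatory T (Treg) cells were examined for H3K27ac, the acetylated histone mark of active promoters and enhancers. The set held 6 of the 21938 protein-coding genes annotated in GENCODE M21 on mm10, namely Areg, Klrg1, Pparg, Penk, Gzmb and Il33. Every peak overlapping a gene span extended by 20 kb on each side counted for that gene, and this stretch is called the gene window below. The rule took 45 of 124158 peaks, with 6 at Areg, 17 at Klrg1, 12 at Pparg, 3 at Penk, 6 at Gzmb and 1 at Il33. No measured value entered the rule, but the genes were chosen with earlier results of these data known.

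Large intestinal Treg cells of 2-week-old C57BL/6 mice had been profiled by CUT&Tag, in which an antibody directs a transposase to the marked chromatin. The Ctrl group carried Cre under the Foxp3 gene and 1 floxed Setd2 allele (Foxp3CreSetd2flox/+), although its library titles read WT, and the KO group carried the same Cre and 2 floxed alleles (Foxp3CreSetd2flox/flox). Both groups therefore held Cre and at least 1 floxed allele, and Cre acted in any cell that expressed Foxp3. Each group had 2 libraries, each from sorted cells pooled from 3 to 5 mice, so variation between single mice was averaged. The paper states in general that mice of both sexes were used. Setd2 is the methyltransferase that places H3K36me3 over transcribed genes.

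Treg cells in barrier tissues do more than restrain other T cells, since they also release factors that act on epithelium and stroma. Areg encodes amphiregulin, a growth factor for the EGF receptor, and Penk encodes the precursor of enkephalin peptides. Il33 encodes an alarmin kept in nuclei of epithelial and stromal cells, and tissue Treg cells sense it through ST2, the product of Il1rl1. Klrg1 encodes an inhibitory receptor for cadherins that marks differentiated Treg cells, Pparg a lipid-sensing nuclear receptor, and Gzmb a serine protease of cytotoxic granules.

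The start regions of these genes differed in sequence and in peak coverage. The RefSeq table for GRCm38.p6 gave promoter windows, running from 250 bases before to 50 bases after a start, for 4 of the 6 genes and none for Klrg1 and Penk. A peak overlapped 36.5% of all 32851 such windows. Peaks lay over the single windows of Areg (chr5:91139349-91139648, plus strand) and Gzmb (chr14:56262285-56262584, minus strand) and over the first window of Pparg (chr6:115360894-115361193, plus strand). None lay over the last window of Pparg (chr6:115421816-115422115, plus strand) or over either window of Il33. The 4 windows are printed to show starts with and without H3K27ac, beside the only Il33 peak (chr19:29928450-29928742, plus strand), which lay in an intron. Capitals mark matches, on either strand, to the CRE letters TGACGTCA, the AP-1 letters TGANTCA, the GATA letters AGATAA and TGATAA, the RUNX letters TGTGGT, the nuclear receptor half-site AGGTCA and the TATA box letters TATAAA.
Areg promoter: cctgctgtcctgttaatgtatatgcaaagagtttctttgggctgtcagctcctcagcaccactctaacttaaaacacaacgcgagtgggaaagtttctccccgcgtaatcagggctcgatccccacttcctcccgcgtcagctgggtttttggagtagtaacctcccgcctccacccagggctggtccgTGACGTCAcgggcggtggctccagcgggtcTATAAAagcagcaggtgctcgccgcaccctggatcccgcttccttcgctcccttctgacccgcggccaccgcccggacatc
Gzmb promoter: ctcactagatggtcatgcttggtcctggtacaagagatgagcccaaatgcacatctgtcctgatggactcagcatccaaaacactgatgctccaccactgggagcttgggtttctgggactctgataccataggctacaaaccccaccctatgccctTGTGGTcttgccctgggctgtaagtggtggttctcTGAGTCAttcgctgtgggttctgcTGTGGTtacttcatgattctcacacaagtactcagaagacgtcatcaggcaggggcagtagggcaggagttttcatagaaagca
Pparg first promoter: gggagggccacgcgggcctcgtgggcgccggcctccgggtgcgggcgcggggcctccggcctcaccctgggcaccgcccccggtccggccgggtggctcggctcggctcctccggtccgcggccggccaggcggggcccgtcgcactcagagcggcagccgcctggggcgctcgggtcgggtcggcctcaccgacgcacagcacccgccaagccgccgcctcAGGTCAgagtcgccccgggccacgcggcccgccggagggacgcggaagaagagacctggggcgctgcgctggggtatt
Pparg last promoter: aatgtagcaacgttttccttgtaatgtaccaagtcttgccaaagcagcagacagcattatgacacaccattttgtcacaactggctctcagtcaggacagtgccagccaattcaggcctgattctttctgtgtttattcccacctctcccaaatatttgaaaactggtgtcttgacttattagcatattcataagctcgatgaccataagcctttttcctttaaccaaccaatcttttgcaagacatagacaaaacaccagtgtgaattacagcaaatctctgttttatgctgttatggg
Il33 intronic peak: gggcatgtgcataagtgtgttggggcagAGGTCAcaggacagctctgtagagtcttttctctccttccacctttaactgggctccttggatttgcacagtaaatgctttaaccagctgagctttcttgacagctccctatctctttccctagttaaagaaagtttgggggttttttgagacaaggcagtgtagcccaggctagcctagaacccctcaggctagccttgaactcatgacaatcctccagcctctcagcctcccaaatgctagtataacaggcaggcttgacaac

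The Areg window held a CRE match beginning 61 bases and a TATA box match beginning 31 bases before the start. CRE matches occurred in 1.79% and TATA box matches in 13.6% of all promoter windows. Gzmb held 1 AP-1 match 58 bases and 2 RUNX matches 93 and 34 bases before its start, letters found in 7.81% and 16.8% of promoter windows. The first Pparg window held 1 half-site match 28 bases before the start, as did 16.3% of windows at some position. The GATA letters AGATAA and TGATAA, present in 11.2% and 9.05% of windows, had no match in the printed sequences. No searched motif overlapped another in these sequences. The first Pparg window, with a peak, held 80.3% G or C and 44 CG dinucleotides. The last, without a peak, held 40.3% and 2, beside medians of 52.7% and 7 over all windows. The second Pparg window, not printed and also overlapped by a peak, held 62.7% and 13. The Areg and Gzmb windows held 59.3% and 51.0% G or C and 21 and 2 CG dinucleotides. Gzmb thus had a peak with as few CG dinucleotides as the last Pparg window. Of the 293 bases of the Il33 peak, 138 (47.1%) were soft-masked as repeats in the assembly, against none in the other printed windows. These matches are descriptions of letters only.

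Depth in peaks was 2395002 and 3630447 counts for Ctrl libraries and 3007444 and 4712473 for KO libraries. Values are given as CPM, the counts scaled to a common library size with TMM factors of the peak table. The 6 Treg markers (Foxp3, Il2ra, Ikzf2, Ctla4, Cd3e and Cd4) all had peaks over their gene spans, with a summed level of 2320 to 3230 CPM per library. Peaks were absent over Cd8a, Ncr1, Eomes, Ms4a1, Lyz2, Itgam, Mcpt4, Fcer1a, Krt8, Krt20, Cdx2, Col3a1, Pdgfra, Dcn, Cdh5 and Kdr. The summed level was 4.17 to 8.60 CPM over 2 CD8 T cell markers, 0 over 2 NK markers, 12.5 to 15.8 over 3 mast cell markers, 13.6 to 19.2 over 5 epithelial markers and 2.16 to 5.65 over 4 fibroblast markers. It reached 164 to 261 over 4 B cell markers, chiefly at Cd79a, 110 to 137 over 5 myeloid markers, chiefly at Spi1, and 551 to 1040 over 3 endothelial markers, where Pecam1 alone had peaks. Such sums depend on gene length. Per kb of gene span, Cd79a held 31.6 to 52.7 CPM and Foxp3 11.3 to 20.2. Whether cells of other types contributed to these peaks was not tested. The Setd2 window held 130 and 179 CPM in Ctrl and 101 and 138 CPM in KO, which does not check the deletion. Correlations of log2 CPM over tested peaks were 0.752 and 0.815 within genotypes and 0.728 to 0.841 between them. In such bulk libraries, fewer cells with the mark at a gene and less mark per cell cannot be told apart.

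H3K27ac was very unevenly spread over the repair genes. Klrg1 took 77.8% of the 8908 counts in the 6 windows, Pparg 13.3%, Gzmb 4.06%, Areg 3.6%, Penk 1.08% and Il33 0.135%. Windows differ in length, so levels between genes were compared as CPM per kb of window in Ctrl, as a percentile among all coding gene windows. By this measure Klrg1 reached 10.5 CPM per kb (percentile 99.8), far above the median of 0.531 over all coding windows. Gzmb at 0.683 (percentile 54.7), Areg at 0.629 (53.1) and Pparg at 0.542 (50.3) were near that median. Penk followed at 0.236 (percentile 39.7) and Il33 at 0.00197 (19.8), in an annotation where 19.3% of windows had no peak at all. The order among Gzmb, Areg and Pparg was within the spread of the Ctrl libraries, which covered 0.5 to 0.865, 0.341 to 0.917 and 0.515 to 0.569 CPM per kb.

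**Figure D1:**
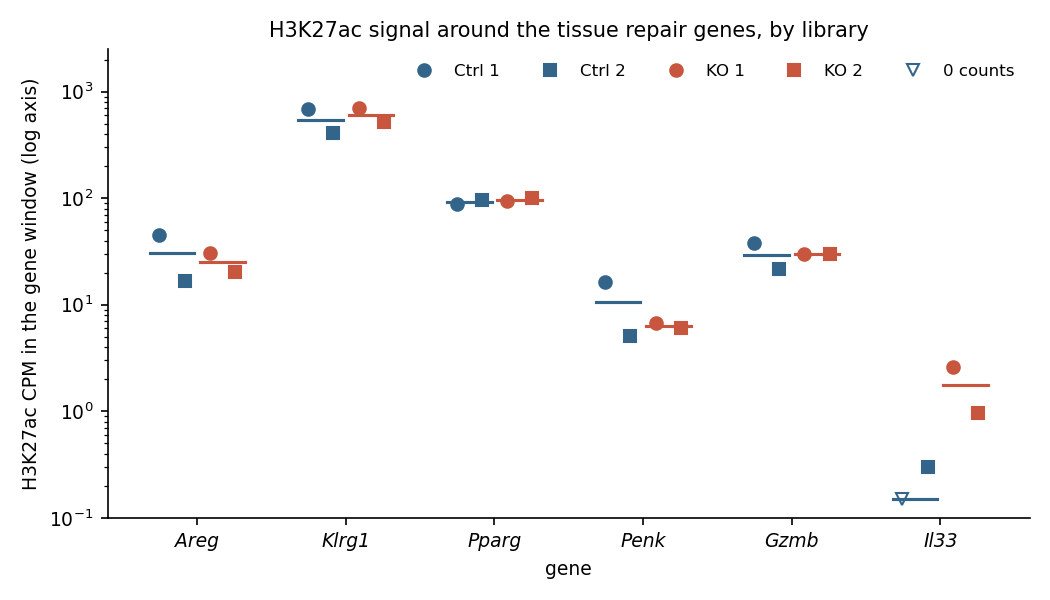
H3K27ac in the window of each gene (vertical log axis, CPM) for Ctrl 1, Ctrl 2, KO 1 and KO 2, with horizontal bars at the mean of each genotype and an open triangle, drawn at 0.15 so that it can be shown, for the library with 0 counts. Klrg1 sits between 406 and 701 CPM in every library, and the libraries of the genotypes overlap for each gene except Il33, which rests on 12 counts.

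The question for each gene was whether loss of Setd2 changed its H3K27ac. None of the 5 windows that could be tested passed an adjusted p under 0.05 by the edgeR quasi-likelihood test, and none reached an unadjusted p under 0.05. Over all 16106 tested windows, 0% were called by edgeR and 2.54% (409, of which 355 were lower in KO) had an unadjusted p under 0.05, while DESeq2 called 0 and gave 305 at that level. In all 5 windows the KO libraries overlapped the Ctrl libraries, whereas 28.7% of tested windows did not overlap. With 2 libraries a group, p-values concern these pools only. For windows they used the spread at the row together with the trend over all windows. For peaks they used the trended spread over all peaks alone. Intervals below are 95% intervals of the log2 fold change, KO over Ctrl.

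Areg, the growth factor gene, carried 44.8 and 16.7 CPM in Ctrl (30.7 ± 19.9, SD, n = 2) and 30.6 and 20.1 CPM in KO (25.3 ± 7.37, n = 2). Both KO libraries lay between the Ctrl libraries, and Ctrl 1 stood 2.69 times above Ctrl 2, a ratio reached by 2.96% of tested windows. The log2 fold change was -0.27 (SE 0.49, interval -1.37 to 0.83, edgeR adjusted p = 1). Without Ctrl 1 it turned to 0.59, and with the other libraries left out in turn it ran from -0.83 to -0.01.

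Its promoter peak (chr5:91138910-91139864), which covers the CRE and TATA box letters printed above, was the strongest of the 6. It held 54 and 17 counts in Ctrl against 31 and 18 in KO, or 24.4, 5.06, 11.6 and 4.31 CPM. Ctrl 1 was the highest library and Ctrl 2 and KO 2 were nearly level. The fitted log2 fold change was -0.89 (SE 0.51, interval -1.89 to 0.11, edgeR adjusted p = 0.998), and it was 0.60 without Ctrl 1. The peak took 54.5% (44.2 to 64.6) and 30.4% (18.8 to 44.1) of the window's counts in Ctrl against 37.8% (27.3 to 49.2) and 21.4% (13.2 to 31.7) in KO, with exact Clopper-Pearson 95% intervals that cover counting error only. The libraries of the genotypes overlapped in this share as well. No Areg peak lay in the gene body. The 4 upstream peaks, 12.2 to 15.3 kb before the start, were weak at 2.79 to 4.52 mean CPM. The strongest of them (chr5:91127158-91127599) held 9 and 10 counts in Ctrl against 18 and 18 in KO, with KO above Ctrl, 4.07 and 2.98 CPM against 6.71 and 4.31, and a log2 fold change of 0.64 (SE 0.78, edgeR adjusted p = 0.998), which ran from 0.29 without KO 1 to 0.91 without KO 2. The promoter and this upstream peak thus had estimates of opposite sign, neither of which passed the test.

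Penk, the enkephalin precursor gene, had little signal. Its window held 16.3 and 5.06 CPM in Ctrl (10.7 ± 7.94, n = 2) and 6.71 and 5.99 CPM in KO (6.35 ± 0.507, n = 2), from 96 counts in all. Ctrl 1 was again the high library, 3.22 times above Ctrl 2, and the KO libraries lay between the Ctrl libraries. The log2 fold change of -0.73 had a wide interval (-2.50 to 1.05, SE 0.79, edgeR adjusted p = 1) and became 0.32 without Ctrl 1. All 3 Penk peaks also overlapped the annotated gene A830012C17Rik, so their signal cannot be assigned to Penk alone. The promoter peak (chr4:4138517-4138797) held 9 and 3 counts in Ctrl against 0 and 5 in KO, too few to test. The upstream peak at chr4:4148429-4148949 held 15 and 8 counts in Ctrl against 17 and 15 in KO, and the one at chr4:4153752-4154078 held 12 and 6 against 1 and 5. Of the upstream peaks only the first reached the count minimum and was tested, with a log2 fold change of 0.14 (SE 0.76, edgeR adjusted p = 0.998).

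Klrg1 was the one repair gene with a broad acetylated domain. Its window held 689 and 406 CPM in Ctrl (547 ± 200, n = 2) and 701 and 518 CPM in KO (610 ± 130, n = 2), and peaks covered 68.2% of it. In each genotype the library numbered 1 was the higher, so the spread within genotypes exceeded the difference between their means. The log2 fold change was 0.16 (SE 0.28, interval -0.47 to 0.79, edgeR adjusted p = 1), and leaving out single libraries moved it from -0.18 without Ctrl 2 to 0.58 without Ctrl 1. A loess offset on abundance gave -0.05. By comparison, Il1rl1 held 242 and 217 CPM in Ctrl and 299 and 253 in KO (estimate 0.27 on the log2 scale, SE 0.22), and Gata3, a transcription factor of ST2+ Treg cells, 310 and 276 against 358 and 410 (0.39, SE 0.22). In both of these windows KO lay above Ctrl, and neither passed the test (edgeR adjusted p = 1). These are sums over whole windows, with 25 peaks at Il1rl1, so a loss at a single enhancer can be hidden. The paper reports reduced H3K27ac at an intragenic Il1rl1 enhancer in KO cells and no decrease at Gata3. Single Il1rl1 peaks were not examined here. The difference between Klrg1 and these windows was not tested.

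Upstream peaks held 51.8% and 53.9% of the Klrg1 window's counts in Ctrl and 57.1% and 54.7% in KO. These shares include a peak, described last in this paragraph, that cannot be assigned to Klrg1 alone. A peak 11.5 kb wide (chr6:122287701-122299170), beginning 4.82 kb before the start, held 575 and 522 counts in Ctrl against 760 and 842 in KO. It carried 260, 155, 283 and 202 CPM and took 37.8%, 38.3%, 40.4% and 38.9% of the window's counts, an almost constant share. The log2 fold change of 0.22 (SE 0.25, edgeR adjusted p = 0.998) was below the median of 0.30 over the 116 tested peaks of like strength. The gene model Gm6637 also overlapped this domain. The next peak upstream (chr6:122299686-122305589) carried 90.0 and 56.5 CPM in Ctrl and 103 and 72.6 in KO (estimate 0.27 on the log2 scale, SE 0.29). It ran past the end of the window, overlapped Gm27826 and had M6pr as its nearest coding start, so its signal cannot be assigned to Klrg1 alone.

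Over the Klrg1 start itself the peak chr6:122282189-122285054 carried 63.3 and 25.6 CPM in Ctrl and 50.7 and 35.7 in KO. The Ctrl libraries enclosed the KO libraries, and the log2 fold change was -0.03 (SE 0.32, edgeR adjusted p = 0.998). The smallest p of any peak of the 6 genes belonged to a weak peak 30.1 kb downstream of the Klrg1 start (chr6:122252300-122253229), beyond the end of the gene. It held 33 and 8 counts in Ctrl against 10 and 13 in KO, and only Ctrl 1 stood out. Its log2 fold change was -1.29 (SE 0.69, edgeR adjusted p = 0.998) and turned to 0.50 without Ctrl 1. The share of the window's counts in the 4 promoter peaks of Klrg1 was 13.0% and 8.66% in Ctrl and 10.7% and 9.07% in KO.

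**Figure D2:**
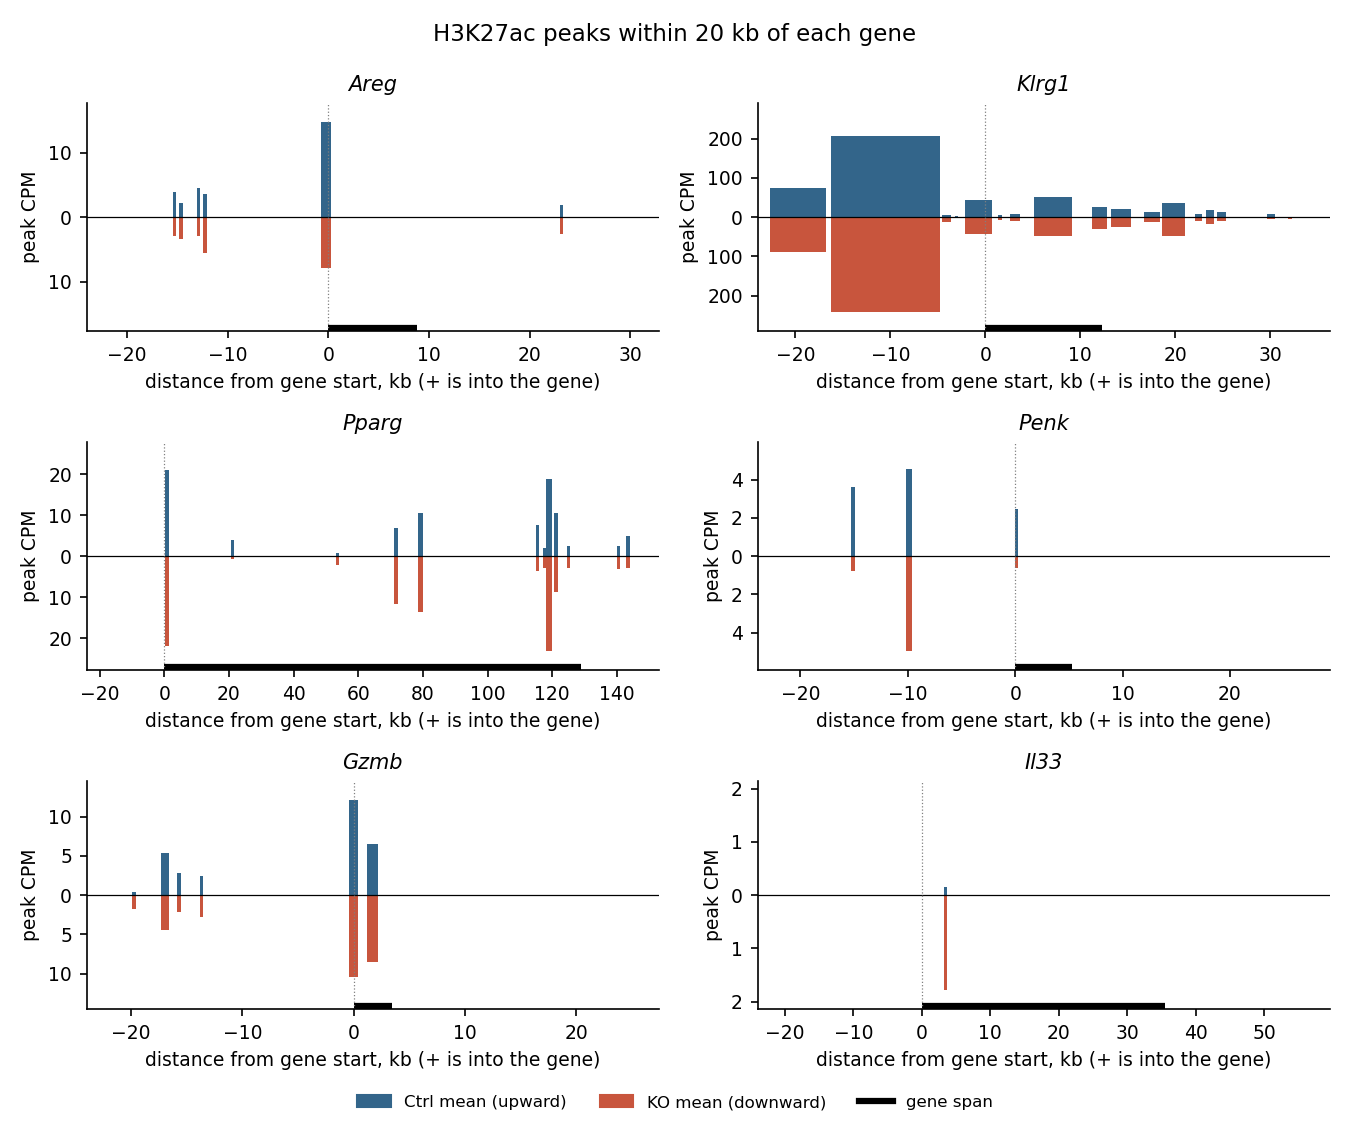
Peaks of the 6 genes by distance from the gene start (horizontal axis, kb) with the mean Ctrl CPM of each peak drawn upward and the mean KO CPM downward, the vertical scale set per gene, and narrow peaks widened so that they can be seen. Klrg1 carries a wide upstream domain of 208 CPM in Ctrl and 242 CPM in KO, Areg and Gzmb are led by a peak at the start, and the Pparg signal is divided mainly between promoter peaks and introns.

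Pparg, the nuclear receptor gene, had the most even values over the 4 libraries. Its window held 87.3 and 96.4 CPM in Ctrl (91.9 ± 6.44, n = 2) and 93.9 and 100 CPM in KO (97.1 ± 4.59, n = 2). The values interleaved, and the log2 fold change was 0.080 (SE 0.23, interval -0.45 to 0.61, edgeR adjusted p = 1). This was the narrowest interval among the 5 tested windows, and it does not exclude a change of either sign within those bounds. The even total rested on peaks that varied more. At the first 2 RefSeq starts, a single peak (chr6:115361117-115362501) held 20.8 and 21.1 CPM in Ctrl and 18.6 and 25.2 in KO (estimate 0.070 on the log2 scale, SE 0.39). A broad intronic peak 119 kb into the gene (chr6:115479021-115481015) was of like strength, at 14.0 and 23.8 CPM in Ctrl and 19.7 and 26.6 in KO (0.28, SE 0.39). An intronic peak 116 kb into the gene (chr6:115476108-115476844) was lower in both KO libraries, at 9.05 and 5.95 CPM in Ctrl against 2.98 and 4.31 in KO. Its log2 fold change of -0.999 (SE 0.69, interval -2.35 to 0.36) did not pass the test (edgeR adjusted p = 0.998). A promoter peak 79.3 kb into the gene (chr6:115439489-115440961) held 13.1 and 8.04 CPM in Ctrl and 13.8 and 13.4 in KO (0.382, SE 0.485). A weak one 21.1 kb into the gene (chr6:115381883-115382271) held 6.79 and 0.893 against 0.745 and 0.479 CPM and was not tested. Promoter peaks held 46.6% (39.4 to 53.9) and 31.2% (26.2 to 36.5) of the counts in Ctrl against 35.3% (29.4 to 41.6) and 38.9% (34.2 to 43.8) in KO, so the Ctrl libraries differed from each other by more than the genotypes did.

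Gzmb, the granzyme gene, held 37.6 and 21.7 CPM in Ctrl (29.6 ± 11.2, n = 2) and 30.2 and 29.9 CPM in KO (30.1 ± 0.163, n = 2). The KO libraries lay between the Ctrl libraries, whose ratio of 1.73 was reached by 9.70% of tested windows. The log2 fold change was 0.032 (SE 0.37, interval -0.81 to 0.87, edgeR adjusted p = 1), and it changed sign with total counts as library size, at -0.02. The signal was concentrated at the gene, where 2 promoter peaks took 56.6% and 74.0% of the counts in Ctrl against 66.7% and 59.2% in KO. The peak over the start (chr14:56261921-56262715), which spans the AP-1 and RUNX letters printed above, held 28 and 39 counts in Ctrl against 32 and 37 in KO. That corresponded to 12.7, 11.6, 11.9 and 8.87 CPM and a log2 fold change of -0.23 (SE 0.50, edgeR adjusted p = 0.998), or -0.05 without KO 2 and -0.47 without KO 1. The peak inside the gene (chr14:56260117-56261111) held 8.60 and 4.46 CPM in Ctrl and 8.20 and 8.87 in KO (0.42, SE 0.59).

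**Figure D3:**
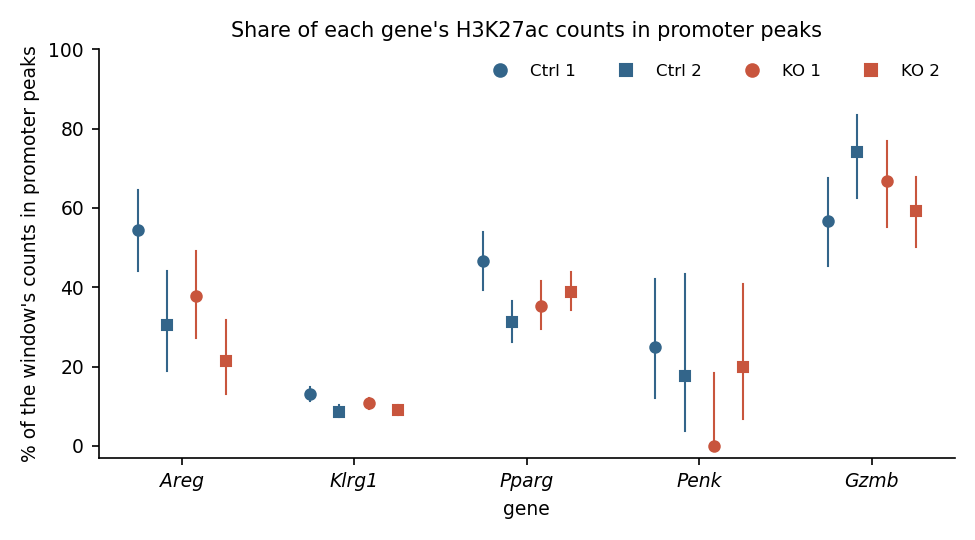
Share of each window's counts that fell in promoter peaks (vertical axis, %), by gene and library, with exact 95% binomial intervals as vertical lines. The libraries of the genotypes overlap for all 5 genes, and Ctrl 1 and Ctrl 2 differ most at Areg (54.5% and 30.4%).

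Il33, the alarmin gene, had almost no H3K27ac. Its only peak lay in an intron, 3.48 kb after the gene start, and the promoter windows at both of its RefSeq starts had no peak. The counts were 0 and 1 in Ctrl and 7 and 4 in KO, or 0, 0.298, 2.61 and 0.958 CPM. The KO libraries lay above the Ctrl libraries, but the peak did not reach the minimum of 10 counts in 2 libraries and was not tested. A count of 0 in Ctrl 1 allows up to 1.36 CPM at 3 counts, and the Ctrl 2 value was under its limit of 0.893 CPM. With so few Ctrl reads the peak can have entered the joined set only through KO reads, so its direction was set by peak calling and no ratio is given. The part that its soft-masked bases, given above, had in these counts was not tested.

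Among the peaks as single units, 33 of the 45 passed the count minimum and 12 did not, with all 17 of Klrg1, 8 of Pparg, 4 of Areg, 3 of Gzmb, 1 of Penk and none of Il33 passing. None of the 33 was called by edgeR, beside 0.00134% (1 of 74550) of all tested peaks, and DESeq2 called 0 over all peaks at an adjusted p under 0.05. None had an edgeR unadjusted p under 0.05, beside 4.24% of all tested peaks. The paper does report H3K27ac peaks significantly increased and decreased in KO by DESeq2. Its methods do not give the threshold for these, so the counts cannot be set side by side. In 7 of the 33, or 21.2%, the genotypes did not overlap, beside 33.3% of all tested peaks, with 3 of the 7 at Klrg1, 3 at Pparg and 1 at Areg. KO was above Ctrl in 6 of these and below in 1. The estimates were positive in 18 and negative in 15, with a median of 0.070 beside -0.01 over all tested peaks. Against tested peaks of like strength, 31 of the 33 lay between the 5th and 95th percentile, 16 above and 17 below the median. The 2 outside were both at Klrg1, the downstream peak at -1.29 and an upstream peak at 0.82 (chr6:122286497-122287491, 6.33 and 6.55 CPM in Ctrl against 14.2 and 8.87 in KO), the latter named after its value was seen.

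**Figure D4:**
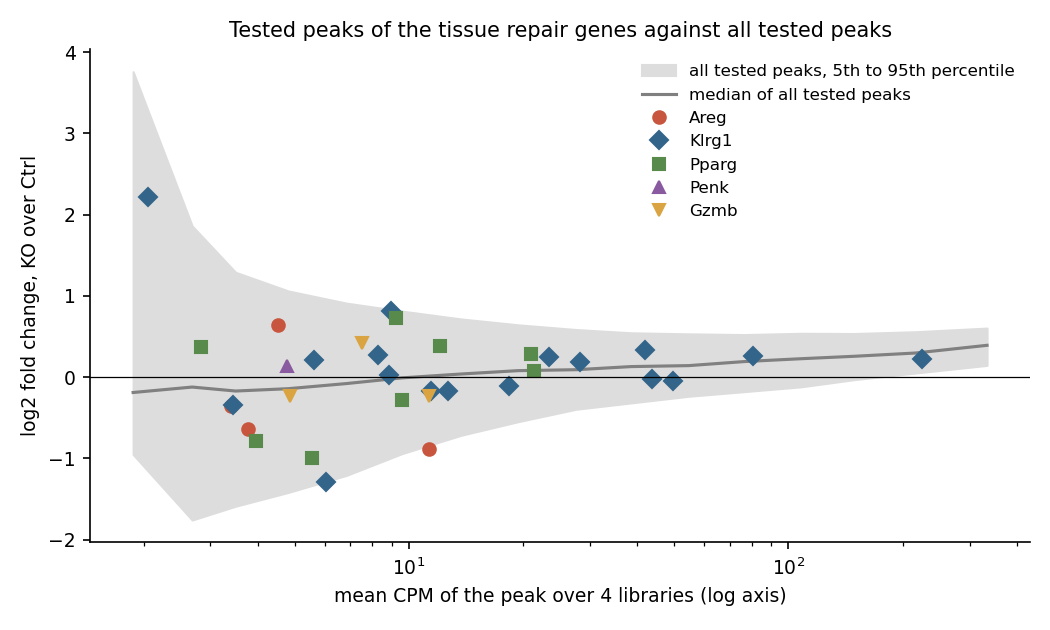
Log2 fold change, KO over Ctrl, of the 33 tested peaks (vertical axis) by their mean CPM (horizontal log axis), with the 5th to 95th percentile of all tested peaks of like strength in grey and their median as a line. The median rises with strength to 0.39, and 31 of the 33 peaks lie in the grey band.

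**Figure D5:**
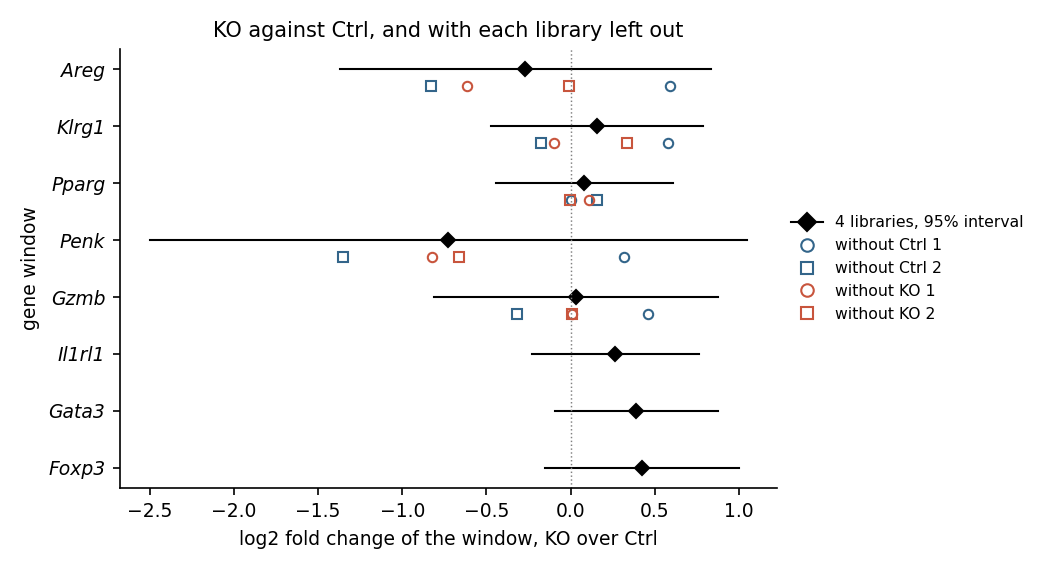
Log2 fold change of each tested window, KO over Ctrl (horizontal axis), as diamonds with 95% intervals, and for the 5 repair genes the value with each library left out as open symbols. All intervals include 0, and leaving out Ctrl 1 moves Areg to 0.59 and Penk to 0.32.

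Libraries of the same genotype differed at several of these genes. Ctrl 1 was above Ctrl 2 and KO 1 above KO 2 for Areg, Klrg1, Penk and Gzmb, 4 of the 5 tested windows, a pattern shown by 35.7% of all tested windows. A further 39.8% of all tested windows had the reverse order in both genotypes. The ratio of KO 1 to KO 2 was 1.52 at Areg and 1.35 at Klrg1 but only 1.12 at Penk and 1.01 at Gzmb. The ratio of Ctrl 1 to Ctrl 2 was 1.70 at Klrg1, reached by 10.2% of tested windows, beside a median of 0.964 over all of them. Pparg ran slightly the other way, with ratios of 0.906 in Ctrl and 0.935 in KO.

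Other genes with the same pattern over the 4 libraries were named by the Euclidean distance of log2 CPM deviations from the mean. For Areg these were Lamtor5 (distance 0.0486), Med4 and Tceanc, and 52 windows lay within 0.25. Klrg1 was most like Nlrp10 (0.0337), Pdss2 and 0610009B22Rik, with 363 windows within that distance, and Gzmb most like Fbxo16 (0.0271), Dtl and Rps6, with 226. Pparg, whose flat profile is common, was nearest to Susd1 (0.0184), 1810013L24Rik and Rprd1b among 2371 such windows. Penk had only 8, led by Lhx9 and 2310009B15Rik (both 0.134) and Slc40a1. Lhx9 and 2310009B15Rik had identical CPM in all 4 libraries, so they are not independent examples.

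The genes around each member in its pathway were described from 7 lists, holding 107 genes beyond the members. Of these, 89 were tested and none was called by edgeR. An unadjusted p under 0.05 was reached by 1 gene with a positive estimate, Rhbdf2, and by 1 with a negative estimate, Lamp1. Genes given with values below were picked from the lists after their values were seen. KO was above Ctrl without overlap in 24 and below in 5, together 32.6% beside 28.7% of all tested windows. Their median log2 fold change was 0.13, beside -0.01 over all tested windows, of which 49.3% had positive estimates. That comparison takes no account of signal strength. For each list gene, the 500 tested windows nearest in level gave a median log2 fold change. The middle of these medians ran from -0.06 for the amphiregulin list to 0.12 for the tissue Treg list.

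For amphiregulin, 14 of 17 ligand, receptor and sheddase genes were tested, 8 with positive and 6 with negative estimates (median 0.03). Rhbdf2, a regulator of the sheddase ADAM17, held 38.0 and 40.2 CPM in Ctrl and 49.9 and 76.4 in KO (estimate 0.70 on the log2 scale, SE 0.30, edgeR adjusted p = 1). Adam17 itself held 221 and 224 against 217 and 178, and Hbegf, 1 of several further ligand genes, 9.50 and 8.33 against 7.45 and 5.03. The ligand gene Btc held 12.7 and 13.4 against 12.3 and 11.3, and Nrg1 4.52 and 3.87 against 13.8 and 1.68, while Ereg and Tgfa had too few counts to test. In the IL-33 receptor list, 9 of 12 tested genes had positive estimates (median 0.10), including Irak2, a kinase of the receptor complex, at 708 and 781 against 835 and 963 CPM. The alarmin gene and the receptor gene differed greatly in level, since Il1rl1 held 3.03 CPM per kb in Ctrl.

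Among PPARγ partners and lipid targets, 10 of 17 tested genes had positive estimates (median 0.08). Fabp4, a fatty acid binding protein gene and classical target, held 12.7 and 10.1 CPM in Ctrl and 23.1 and 19.2 in KO (0.89, SE 0.47, edgeR adjusted p = 1), while Cd36 and Lpl had no peak. Among granzyme and granule genes, 13 of 15 estimates were positive (86.7%) with a median of 0.09, and 12 of the 15 lay above the median of the 500 windows nearest in level. Gzmk, another granzyme gene, held 143 and 115 against 171 and 115 CPM, and Lamp1, a granule membrane protein gene, 12.7 and 12.5 against 4.10 and 3.83 (-1.66, SE 0.71, edgeR adjusted p = 1). Gzmd, Gzme, Gzmg and Gzmn had no peak.

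In the opioid list 5 of 10 genes were tested and 4 had positive estimates (median 0.38). Pomc, another opioid precursor gene, held 17.2 and 15.8 against 27.9 and 22.8 CPM, and the convertase gene Furin 220 and 261 against 344 and 304, whereas Pdyn, Pcsk1 and Oprk1 had no peak. Around KLRG1, 7 of 13 tested genes had positive estimates (median 0.06). Its ligand gene Cdh1 held 43.0 and 48.8 against 60.4 and 42.9 CPM, and the phosphatase gene Ptpn6 415 and 395 against 449 and 536. The natural killer lectin genes Klrd1, Klrk1 and Klre1 had no peak. Other lectin genes of this list had peaks. Klrb1c held 282 and 162 against 308 and 176 CPM, Klrb1f 29.4 and 25.3 against 33.2 and 18.2, and Klrc1 15.4 and 4.76 against 12.7 and 4.79. In tissue Treg factors and receptors 15 of 18 estimates were positive (83.3%), with a median of 0.17. For each of these genes the 500 tested windows nearest in level gave a median log2 fold change, and the middle of these medians was itself 0.12. Of the 18 genes, 12 lay above and 6 below the median of such windows. There Batf held 359 and 323 against 458 and 416 CPM and Irf4 294 and 247 against 385 and 352, with KO above Ctrl in 8 of the 18 and below in none, beside 28.7% of all tested windows without overlap in either direction. Both encode transcription factors of effector Treg cells, and neither passed the test (edgeR adjusted p = 1). By the same comparison with windows nearest in level, 10 of 14 amphiregulin, 9 of 12 IL-33 receptor and 12 of 17 PPARγ list genes lay above. In the opioid and KLRG1 lists 4 of 5 and 6 of 13 did, so most lists leaned the same way. The lists share genes with the members and were chosen with results known, so these counts are descriptions.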

How the data were processed

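The 4 H3K27ac libraries were analysed, and an IgG sample listed without a file was not used here. Reads had been trimmed, mapped uniquely to mm10 by Bowtie2 and cleared of duplicates. MACS2 peaks over IgG had been joined with bedtools, and the authors deposited the unnormalised counts of reads in each joined peak. Tool versions are not given in the sources used here. A site without a peak has no value.

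Peak counts were summed over each gene window, and neighbouring windows share peaks. Rows reaching 10 counts in 2 or more libraries entered edgeR 4.0.16 (R 4.3.3, glmQLFTest, genotype only), with TMM factors and library sizes of the peak table and Benjamini-Hochberg adjustment over all rows tested. The prior degrees of freedom were 7.43 for windows and infinite for peaks, which were thus tested with the trended spread. The SE is the log2 fold change over the root of F. Promoter peaks lay within 3 kb of an annotated start. Genes named as most like a member were taken from tested windows sharing no peak with it. Counts of windows within 0.25 ran over all tested windows but its own, so they can include neighbours sharing its peaks. Sequences came from the RefSeq table and, for the Il33 peak, from GRCm38.p6, the assembly of mm10. Coordinates are 1-based.

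The genes, lists and motifs were chosen with earlier results of these data known. Named peaks were, per gene, the 2 strongest, the strongest promoter peak and the tested peak with the smallest p, at most 4. The Pparg promoter peaks at 115439489 and 115381883 were given in addition to these. Alternatives were DESeq2 1.42.0, the study's tool, other scalings, minimums and windows, a robust fit, halved counts, a replicate block and leaving out each library. The code was tested on simulated counts.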

Additional observations from a re-analysis of the deposited data

How the results depend on the processing

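With 2 libraries a genotype and counts as low as 96 for a tested window, small changes could not be resolved, and no tested window of the 6 genes was called under any setting run. Some signs depended on scaling. Klrg1 was -0.0467 with a loess offset on abundance. Gzmb was -0.0399 with halved counts and -0.0236 when library sizes were total counts, the former in case both mates of a pair had been counted. Counts of member peaks at an unadjusted p under 0.05 rose to 1 with total counts as library size. Peaks called over the whole table numbered 0 with DESeq2, 0 with a minimum of 1 count in any library and 0 with a minimum of 50 counts in 2 libraries. Chosen after seeing the data, the minimum of 50 also turned the Pparg peak at 115361117 to -0.0545. Penk had no value for the span without extension, for 5 kb or for the minimum of 50. The cause of these shifts was not tested.

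Leaving out 1 library at a time moved the windows from -0.831 to 0.589 at Areg, -0.177 to 0.58 at Klrg1, -0.00205 to 0.159 at Pparg, -1.35 to 0.315 at Penk and -0.317 to 0.46 at Gzmb, where at all but Pparg the highest value came without Ctrl 1. Peaks called ran from 0 to 1, and member peaks at an unadjusted p under 0.05 from 0 to 2. Named peaks ran from -1.75 to 0.602 (Areg 91138910), -2.12 to 0.5 (Klrg1 122252300), -0.56 to 0.739 (Klrg1 122282189), -0.104 to 0.634 (Klrg1 122287701), -0.0394 to 0.625 (Klrg1 122299686), -0.203 to 0.246 (Pparg 115361117), -0.0387 to 0.739 (Pparg 115479021), -0.476 to 1.02 (Penk 4148429) and -0.00239 to 0.923 (Gzmb 56260117). Without a change of sign, Areg 91127158 ran from 0.286 to 0.907, Gzmb 56261921 from -0.465 to -0.0535 and Pparg 115476108 from -1.33 to -0.692.

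Nothing in the labels paired the libraries beyond the replicate numbers in their titles. The paper calls the mice of both genotypes littermates but does not state which pools shared a litter. Whether same-numbered libraries were paired is therefore not known. Deviations of same-numbered libraries correlated at 0.253 over peaks and 0.537 over windows. With the replicate block, 1632 windows and 211 peaks were called, in a fit with 1 residual degree of freedom and an infinite prior. None of the 5 tested repair genes was among them: Klrg1 was 0.189 with an edgeR unadjusted p of 0.0161 and an adjusted p of 0.108. The count of member peaks at an unadjusted p under 0.05, added after seeing the data, rose to 1 with the block, the wide Klrg1 peak at 122287701 (0.25, edgeR unadjusted p of 0.034 and adjusted p of 0.48). The Klrg1 peak at 122282189 was 0.0638 in that fit.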
